A study of Mus musculus with 30 samples.

Results

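A set of 47 proliferation and replication genes, out of 38561 genes counted, was followed in cultured adipose-derived stem cells of mice. The members were listed by name from what their proteins do in the cell cycle. Here 19 were placed in the G1 and S phase part of the cycle and 28 in the G2/M part. Each of the 47 symbols matched 1 row of the count table, all 47 passed the filter on low counts, and all had reads in all 30 libraries (lowest count 26).

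The cells came from the inguinal fat pad of male C57BL6/J mice and were sorted as Sca-1+, CD34+, CD31-, CD45- and Ter119-. They were grown to passage 2 before RNA was taken, so every level describes cultured cells. Young mice were killed at 20 weeks and aged mice at 52 weeks. Lean animals were kept on control chow, whereas obese animals were fed from weaning on lard-based chow in which fat supplied 60% of the energy. Each mouse gave 1 library, and every group held 8 mice except the aged obese one with 6. No mouse carried a modified allele according to the labels. The aged obese group had spent more weeks on the high-fat chow than the young one, so among obese mice age and feeding time cannot be told apart. Only some of the aged obese mice survived to sampling.

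The cell cycle is driven by waves of transcription. Before and during S phase, E2F factors turn on the genes that license origins (the Mcm helicase subunits, Cdc6 and Cdt1), make nucleotides (the ribonucleotide reductase subunits Rrm1 and Rrm2, and Tyms) and run the fork (Pcna). Later, Foxm1 and Mybl2 bind with the MuvB complex at promoters of the mitotic cyclins, kinases, kinetochore proteins and spindle motors, often at a CHR element with nearby CCAAT boxes. Cells that have left the cycle hold these genes silent, so in bulk RNA from a culture they tend to follow how many cells are cycling. Fewer cycling cells and less of these RNAs per cycling cell cannot be told apart in such data.

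The promoters of members of both waves are shown to let the motif classes be seen beside the values. Most members moved together across libraries, within and between the waves, and whether the motifs had a part in this was not tested. RefSeq entries (build GRCm38.p6) of 250 bases before to 50 bases after a start existed for 37 members, with 39 promoters. The motifs searched on both strands were the CHR TTTGAA, the CCAAT box and the E2F motif GCGGGAA, none of which overlap in the stretches shown. The CHR was in 16 of 23 promoters of G2/M members (69.6%), in 3 of 16 of S phase members (18.8%) and in 17.9% of all 32851 promoters of that length. CCAAT was in 78.3% of G2/M and 68.8% of S phase promoters, against 37.4% of all. The E2F motif was in 0 of 23 G2/M promoters, in 6 of 16 S phase promoters (37.5%) and in 4.6% of all. Below are the 130 bases before the start for 3 G2/M members (Cdk1, Cdc20, Kif11), the 2 ribonucleotide reductase subunits, and Cdt1, chosen after the values were seen, with each motif in capitals.
Cdk1 (chr10:69352913-69353042, minus strand): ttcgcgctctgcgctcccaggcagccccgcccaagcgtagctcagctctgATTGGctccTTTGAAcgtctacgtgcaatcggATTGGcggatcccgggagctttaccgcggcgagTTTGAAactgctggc
Cdc20 (chr4:118437344-118437473, minus strand): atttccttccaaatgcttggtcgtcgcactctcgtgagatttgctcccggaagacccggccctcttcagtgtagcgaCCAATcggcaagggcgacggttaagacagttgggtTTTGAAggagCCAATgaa
Kif11 (chr19:37376252-37376381, plus strand): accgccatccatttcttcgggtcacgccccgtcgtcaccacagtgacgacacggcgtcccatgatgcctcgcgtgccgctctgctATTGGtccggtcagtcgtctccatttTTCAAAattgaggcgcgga
Rrm1 (chr7:102441565-102441694, plus strand): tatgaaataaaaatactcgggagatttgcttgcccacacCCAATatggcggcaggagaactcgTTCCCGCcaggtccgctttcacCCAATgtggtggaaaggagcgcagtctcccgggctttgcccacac
Rrm2 (chr12:24708124-24708253, plus strand): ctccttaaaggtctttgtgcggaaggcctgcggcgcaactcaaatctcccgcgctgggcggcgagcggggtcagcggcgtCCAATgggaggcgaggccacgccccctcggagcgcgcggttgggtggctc
Cdt1 (chr8:122567885-122568014, plus strand): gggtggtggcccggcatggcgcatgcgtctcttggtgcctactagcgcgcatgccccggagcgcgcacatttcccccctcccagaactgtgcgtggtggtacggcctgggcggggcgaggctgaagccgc
In Cdk1, the kinase of mitotic entry, 2 CHR and 2 CCAAT matches lie in this stretch. Rrm1 holds 1 E2F and 2 CCAAT matches, Rrm2 1 CCAAT match, and the Cdt1 stretch none of the 3. A match is a description of letters, not a bound site.

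Counts in genes ranged from 30597765 to 47970233 per library, and levels are given as CPM, counts scaled to a common total with TMM. CPM is not per length, so levels are compared between libraries and not between genes. Within a group some libraries were far more alike than others, by a chi-square statistic per gene that would be near 1 for sampling noise alone. It was 8.39 for young obese 1 and 2 and 6.52 for young obese 19 and 21, but 194 for young obese 1 and 19. It was 77.2 for aged obese 10 and 12 and 502 for aged obese 10 and 17. The tests below count each library as an independent replicate, and whether libraries this alike shared a culture or preparation is not given. Defining transcripts of other cell types were low: a list of 6 erythroid genes summed to at most 0.336 CPM, 6 endothelial genes to 1.28 to 20.9 CPM and 8 immune genes to 12.2 to 36.9 CPM. Lists of 5 adipocyte and 5 mesothelial genes summed to 20.7 to 138 CPM and 54.3 to 255 CPM. Of the sort markers, Ly6a (Sca-1) was at 177 to 1254 CPM and Cd34 at 0.193 to 38.0 CPM. A list of 6 mural cell genes, some of which stromal cells share, summed to a median of 4337 CPM in young lean, 5631 in young obese, 4331 in aged lean and 5476 in aged obese libraries.

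Proliferation transcripts differed more between mice of a group than between groups. Mki67, which encodes the proliferation antigen Ki-67 that coats mitotic chromosomes, lay between 47.1 and 150 CPM in young lean libraries (median 89.1). In young obese libraries it was 38.1 and 35.96 CPM in libraries 1 and 2 and 124 to 209 CPM in the other 6 (median 145). Young obese libraries were thus split, with no value between 38.1 and 124 CPM. In aged lean libraries it reached from 19.8 CPM (library 15) to 172 CPM (library 13), with a median of 88.7. In aged obese libraries it was 234 CPM in library 10, 173 in 12, 58.8 in 16, 45.3 in 14, 20.1 in 15 and 15.03 in 17 (median 52.0). The highest and the lowest Mki67 level of all 30 libraries were thus both in aged obese mice.

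**Figure D1:**
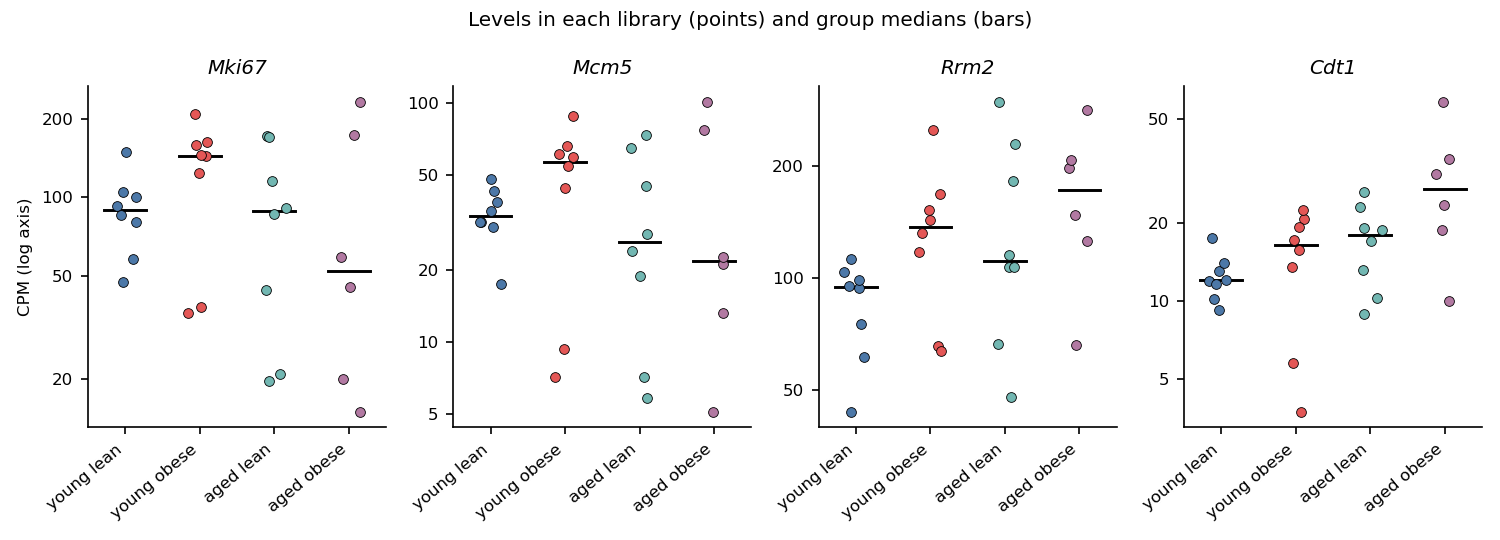
CPM (log axis) of Mki67, Mcm5, Rrm2 and Cdt1 in each library (points) by group, with the group median (bar). Mki67 and Mcm5 show 2 low and 6 high young obese libraries and 2 high aged obese libraries, while the highest Cdt1 value, 58.5 CPM, is in an aged obese library with low Mki67.

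The same libraries were at the extremes for most members. Aged obese 10 had the highest level of all libraries for 32 members, and young obese 22 for 12. Aged obese 17 had the lowest for 32 members and aged lean 15 for 7. Young obese 22 was the highest of its group for all 47 members, and aged obese 10 for 46 of 47. The exception was Cdt1, the licensing factor that loads the Mcm helicase, which was highest in aged obese 15.

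**Figure D2:**
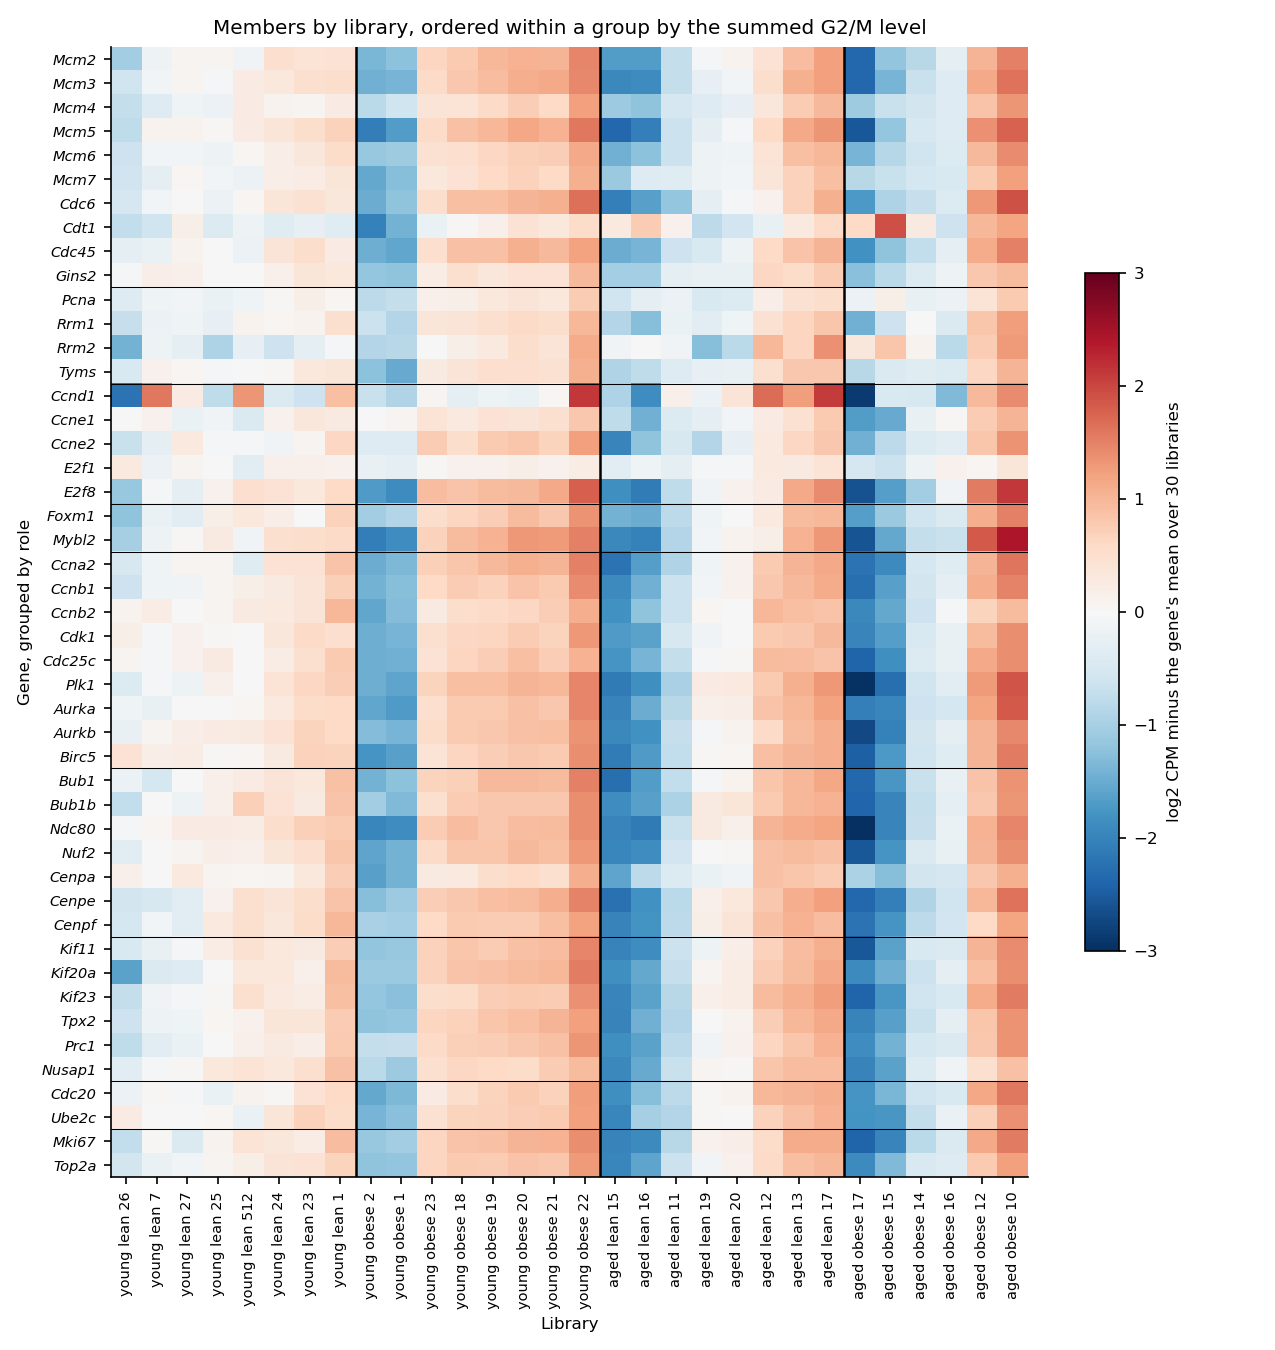
Log2 CPM of each of the 47 members minus its mean over the 30 libraries (colour, from -3 to 3), with libraries ordered inside each group by their summed G2/M level and genes grouped by role. Many columns are mostly blue or red from top to bottom, with exceptions that include Cdt1, Rrm2, Ccnd1 and E2f1, the last of which varied little.

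With obesity in young mice, no member passed the test with edgeR or DESeq2, while 8.83% of the 14438 genes tested did (1275 genes by edgeR's quasi-likelihood test with Benjamini-Hochberg adjusted p below 0.05). Fitted values lay above 0 for 46 of 47 members, with a median log2 fold change of 0.37 against -0.02 over all tested genes. At an unadjusted p below 0.05 the count was 1 of 47, Rrm2, against 28.3% of all genes. Since the members moved together from library to library, their shared sign is not 46 separate observations.

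Among licensing and helicase genes, Mcm5, a subunit of the replicative helicase, was at 17.4 to 48.0 CPM in young lean libraries (median 33.6). In young obese libraries it was at 7.11 and 9.33 CPM in 2 and 1 and 44.1 to 88.8 in the others. The difference was 0.50 ± 0.53 (log2, SE; adjusted p = 0.562). Mcm6, another subunit, had medians of 48.8 and 72.4 CPM with a difference of 0.37 ± 0.38 (adjusted p = 0.552). Of the 10 members of this role all had positive fitted values, from 0.09 for Gins2, a subunit of the GINS complex, to 0.64 for Cdc6, which loads the helicase with Cdt1. In both lean and obese young mice the ranges of all of them overlapped.

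Rrm2, the small subunit of ribonucleotide reductase whose level limits dNTP supply, gave the largest fitted difference with obesity in young mice. It was at 43.6 to 112 CPM in young lean libraries (median 94.8) and at 63.4 to 250 CPM in young obese libraries (median 137). The difference was 0.67 ± 0.32 (adjusted p = 0.168). Pcna, the sliding clamp of the fork, had medians of 67.1 and 85.3 CPM and a difference of 0.23 ± 0.19 (adjusted p = 0.452). Named pseudogenes of Pcna, Tyms, Ccnb1 and Ccnb2 exist in the annotation, so reads of these 4 members may have been split.

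The G1 and S cyclins and E2F genes varied differently from one another. E2f1, an activator of S phase genes, was nearly level, at 29.6 to 45.9 CPM in young lean and 30.6 to 43.8 CPM in young obese libraries (difference 0.0032 ± 0.13, adjusted p = 0.991). Its 95% interval, from -0.26 to 0.27, was the narrowest of the anchor genes described here. Ccne1, cyclin E1 of the G1/S transition, had medians of 23.03 and 29.1 CPM (difference 0.35 ± 0.29, adjusted p = 0.448). Ccnd1, cyclin D1, which links growth signals to the cycle, was at 9.44 to 130 CPM in young lean libraries (median 42.2). In young obese libraries 7 lay between 23.3 and 46.4 CPM and library 22 was at 192 CPM. Its difference was -0.06 ± 0.58 (adjusted p = 0.957), the only fitted value below 0.

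Of the G2/M members all 28 had positive fitted values with obesity in young mice, and none passed. Foxm1, the transcription factor of the G2/M wave, had a median of 27.2 CPM in the young lean group and of 41.3 CPM in the young obese group (difference 0.54 ± 0.42, adjusted p = 0.414). Ccna2, cyclin A2, had medians of 32.4 and 57.2 CPM (0.54 ± 0.49, adjusted p = 0.493). Ccnb1, cyclin B1, had medians of 41.7 and 63.2 CPM (0.42 ± 0.46, adjusted p = 0.576). Young obese 1 and 2 were the lowest of their group for each of these 3 genes, and the ranges overlapped.

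Cdk1, the partner kinase of cyclin B, had a median of 57.5 CPM in the young lean group and of 79.9 CPM in the young obese group (0.23 ± 0.43, adjusted p = 0.762). Plk1, the polo-like kinase, had medians of 31.1 and 54.9 CPM (0.46 ± 0.54, adjusted p = 0.604). Aurkb, the kinase of the chromosomal passenger complex, had medians of 18.8 and 27.3 CPM (0.27 ± 0.47, adjusted p = 0.742). Mki67 differed by 0.50 ± 0.49 (adjusted p = 0.527) and Top2a, topoisomerase II alpha, which untangles sister chromatids, by 0.40 ± 0.42 (medians 107 and 166 CPM, adjusted p = 0.552). The medians lay further apart than the fitted values, which rest on group means that include young obese 1 and 2.

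The fitted values of the other members with obesity in young mice were also above 0, and none passed. The kinetochore and checkpoint genes, which attach chromosomes to the spindle and hold anaphase until all are attached (Bub1, Bub1b, Ndc80, Nuf2, Cenpa, Cenpe and Cenpf), lay between 0.03 and 0.50. The spindle motors and cytokinesis genes (Kif11, Kif20a, Kif23, Tpx2, Prc1 and Nusap1) lay between 0.11 for Nusap1 and 0.64 for Kif20a, a kinesin of the cleavage furrow. Cdc20, an activator of the anaphase-promoting complex, was at 0.28 and Ube2c, its ubiquitin-conjugating enzyme, at 0.24. Aurka, the spindle pole kinase, was at 0.40, Cdc25c, the phosphatase that activates Cdk1, at 0.18, Birc5 (survivin) at 0.16 and Ccnb2, cyclin B2, at 0.03. Mybl2, the MuvB partner, was at 0.64. Among S phase genes E2f8, a repressor of the E2F family, was at 0.64, Mcm2 at 0.60, Ccne2 at 0.57, Mcm3 at 0.55, the helicase cofactor Cdc45 and Mcm4 at 0.50, Rrm1 at 0.36, Mcm7 at 0.34, Cdt1 at 0.25 and Tyms, thymidylate synthase, at 0.20.

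Young obese 1 and 2 had the lowest S phase and G2/M sums of their group, so leaving them out removes the bottom of that group and raises the fitted values by construction. Without them the median log2 fold change of the members was 0.65 and again no member was called. With voom and sample quality weights, which gave these 2 libraries weights of 0.326 and 0.322, 13 members were called higher, while 13.9% of genes were called higher in that fit. Those 13 included Mki67 (0.72 ± 0.26, adjusted p = 0.0392), Foxm1, Rrm1, Rrm2, Mcm2, Mcm3 and Mcm4.

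**Figure D3:**
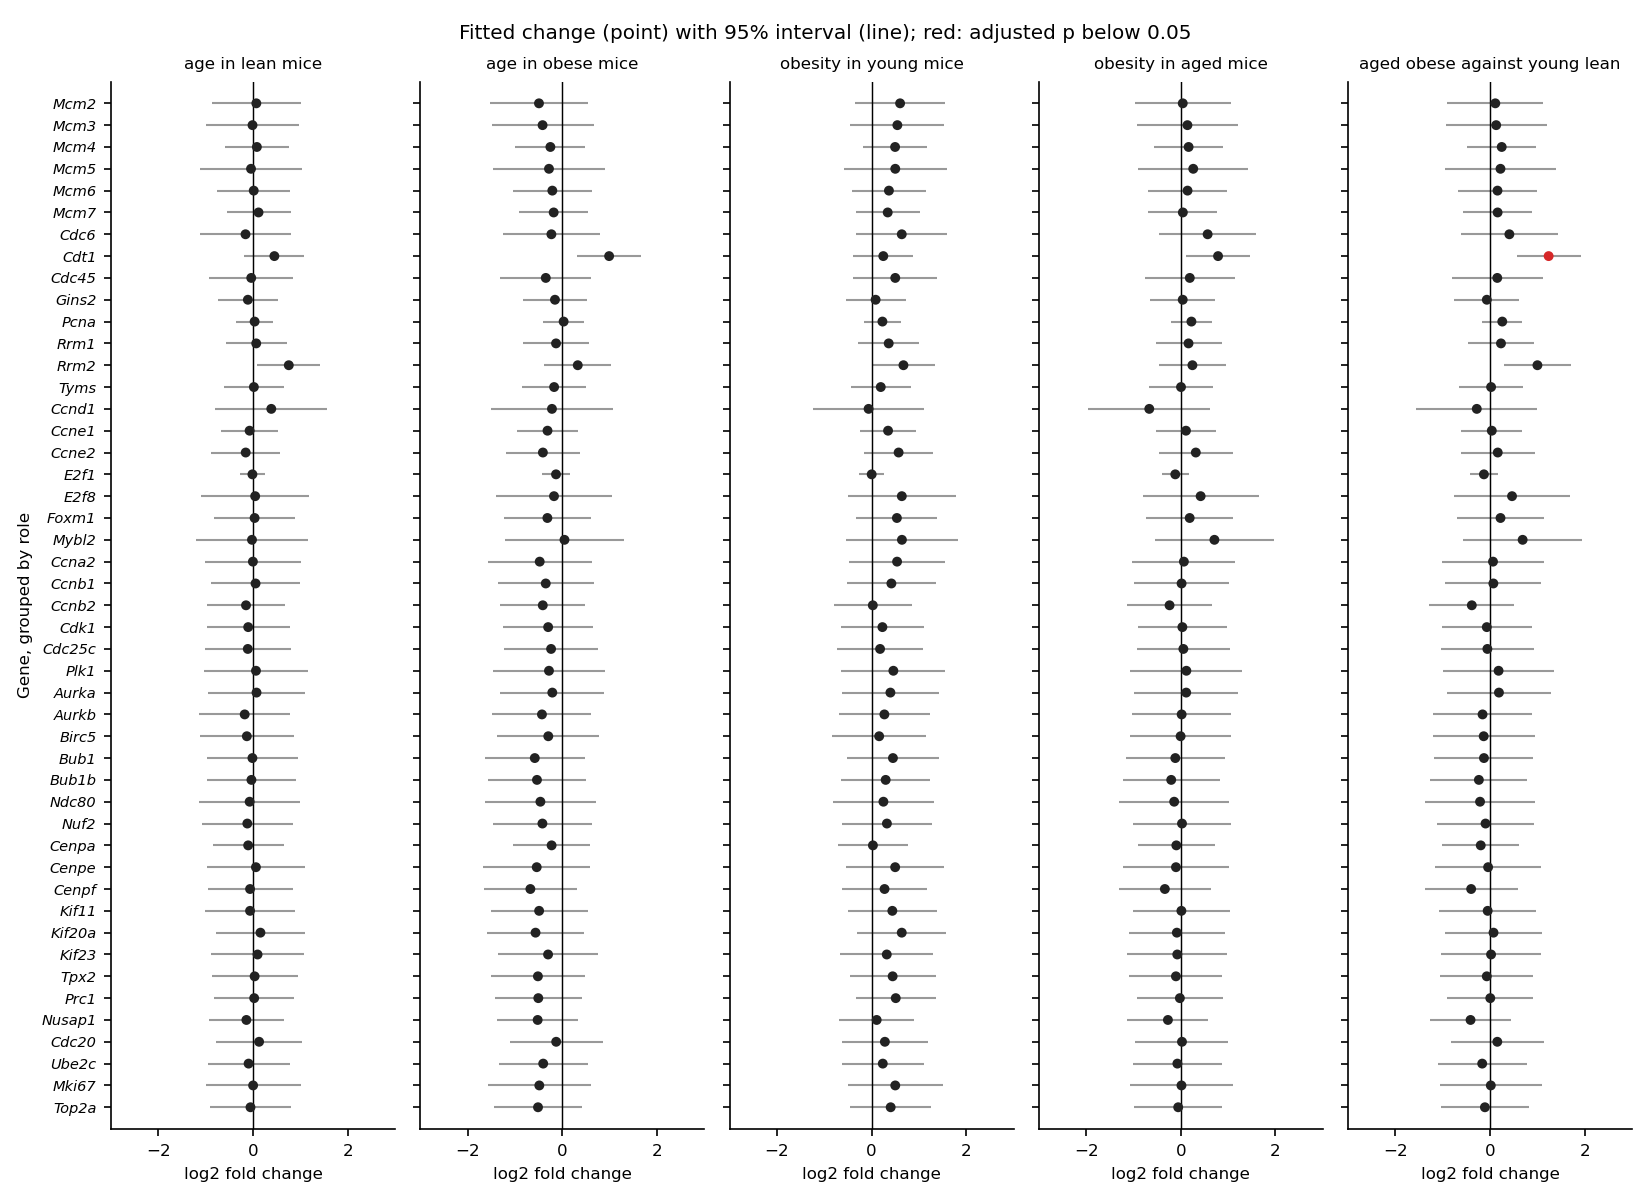
Fitted log2 fold change (point) with its 95% interval (line) for each of the 47 members, grouped by role, in 5 comparisons (panels). Intervals cover 0 for nearly all members in every panel, and Cdt1 in aged obese against young lean libraries is the only point drawn in red for an adjusted p below 0.05.

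With age in obese mice, again no member passed with edgeR, against 3.07% of all genes (443), and at an unadjusted p below 0.05 the count was 1, Cdt1, against 18.9% of all genes. Here 43 of 47 fitted values lay below 0, with a median of -0.31 against 0.01 over all tested genes. These values share the young obese libraries with the comparison above. In the same comparison 2 of 6 mural cell genes were called higher, Cspg4 (2.04 ± 0.47, adjusted p = 0.0223) and Pdgfrb (0.56 ± 0.15, adjusted p = 0.0419). Of all 14438 genes tested, 270 were called higher there. The mural sum was at 4657 to 6092 CPM in young obese and 3590 to 7632 CPM in aged obese libraries, and its part in the members' values was not tested. The 7 lowest values were those of kinetochore and spindle genes, down to -0.67 ± 0.48 for Cenpf, a kinetochore protein (adjusted p = 0.475). Mki67 differed by -0.49 ± 0.53 (adjusted p = 0.662) and Mcm5 by -0.28 ± 0.58 (adjusted p = 0.833). The 4 positive values were those of Cdt1, Rrm2, Pcna and Mybl2, with Cdt1 at 0.99 ± 0.33 (adjusted p = 0.0880) and Rrm2 at 0.33 ± 0.35 (adjusted p = 0.647).

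The number of calls differed between fits. Aged obese 10 and 12 were the highest aged obese libraries for most members, so leaving them out removes the top of that group. Without them 29 members were called lower (median -1.52), while 8.83% of genes were called lower in that fit. Voom quality weights were set anew for all 30 libraries. They gave the young obese libraries the weights listed above and aged obese 10 and 12 weights of 0.186 and 0.301. In that fit 39 members were called lower, against 10% of all genes, and the median was -1.31. With DESeq2 1 member was called, Cdt1 as higher (3.67% of genes were), and without aged obese 16 Cdt1 was called as well (1.17 ± 0.32, adjusted p = 0.0245).

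With age in lean mice, no member passed with edgeR, DESeq2 or voom, and with edgeR no gene of the 14438 did (0%). At an unadjusted p below 0.05 the count was 1 of 47, Rrm2, against 5.35% of all genes. The members' median was -0.01, against -0.02 over all genes, with 22 values above and 25 below 0. Mki67 differed by 0.0020 ± 0.49 and Top2a by -0.05 ± 0.42 with a 95% interval from -0.91 to 0.80. Rrm2, at 43.6 to 112 CPM in young lean and 47.9 to 299 CPM in aged lean libraries, differed by 0.76 ± 0.32 (unadjusted p = 0.0268, adjusted p = 0.85).

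With obesity in aged mice, no member passed with edgeR, DESeq2 or voom, against 0.222% of all genes (32) with edgeR, and at an unadjusted p below 0.05 the count was 1, Cdt1, against 12.7%. The median was 0.03, against 0.01 over all genes. S phase members lay above 0 in 17 of 19 cases and G2/M members in 13 of 28. Cdt1 had the largest value, 0.79 ± 0.33 (adjusted p = 0.302), and Ccnd1 the lowest, -0.67 ± 0.63 (adjusted p = 0.728). Mki67 differed by 0.01 ± 0.53 (adjusted p = 0.996). Without aged obese 10 and 12, the 2 highest libraries, the median was -1.09 and still no member was called.

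Against young lean mice, aged obese mice had 1 member that passed, Cdt1, while 10.3% of all genes passed and 5.62% were higher. Cdt1 was at 9.24 to 17.5 CPM in young lean libraries (median 11.99). In aged obese libraries it was at 58.5 CPM in 15, 35.1 in 10, 30.7 in 12, 23.3 in 17, 18.7 in 14 and 9.95 in 16 (median 27.01). Of the 6 aged obese libraries 5 lay above all young lean libraries, and library 16 lay inside their range. It rose by 1.24 ± 0.33 (log2, adjusted p = 0.0186). Without aged obese 15 the difference was 0.92 ± 0.32 (adjusted p = 0.0887), and with voom quality weights 0.70 ± 0.32 (adjusted p = 0.173), so the call did not hold in those fits. Over all 20 alternatives its adjusted p lay between 0.00377 and 0.173.

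Beside these levels, aged obese 15 also had the highest Pdgfrb (1194 CPM) and Cspg4 (105 CPM) of all libraries, markers of mural cells. Cspg4 and Pdgfrb were called higher in aged obese than in young lean libraries (1.497 ± 0.47, adjusted p = 0.0378, and 0.52 ± 0.15, adjusted p = 0.0281), as was Myh11, and 3 of 6 mural genes were called in all. Of all genes 5.62% were called higher in this comparison. The mural sum was at 3032 to 5889 CPM in the young lean group and 3590 to 7632 CPM in the aged obese group. Their part in the Cdt1 result was not tested. Rrm2 differed by 1.002 ± 0.35 (adjusted p = 0.0583) and passed with DESeq2 (adjusted p = 0.0279; 8.51% of genes were called higher there), without aged obese 16 (0.0202) and without young lean 1 (0.0462). Ranges in the 2 groups overlapped, 43.6 to 112 CPM against 65.9 to 283 CPM. Over all members the median was 0.02 against -0.01 over all genes. No member had ranges that did not overlap in any of the 5 comparisons, while among all genes 1.04% did so here, 1.61% with obesity in young mice, 1.18% with age in obese mice, 0.187% with obesity in aged mice and 0.00693% with age in lean mice.

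Whether obesity acted differently at the 2 ages was tested as an interaction, which passed for no member with edgeR, DESeq2 or voom, against 0.00693% of all genes (1 gene), and at an unadjusted p below 0.05 for 0 of 47 members against 8% of all genes. Fitted values lay below 0 for 45 of 47 members (median -0.31). Mki67 had -0.49 ± 0.72 (adjusted p = 0.875), with a 95% interval from -1.97 to 0.99. This term shares its libraries with all comparisons above and adds no separate evidence of direction.

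The spread within groups was wide. The median SD of the members' log2 CPM was 0.37 in young lean, 0.99 in young obese, 1.11 in aged lean and 1.34 in aged obese libraries. For the median member the highest library was 2.25 times the lowest in young lean mice, 6.28 times in young obese, 7.68 times in aged lean and 10.4 times in aged obese mice. Whether spread differed between groups was tested for Mki67 and Mcm5 after the values were seen, with a two-sided exact permutation test of absolute deviations from the group median over 10 tests. The smallest p, for Mki67 in young lean against aged obese libraries, was 0.0253 by that exact permutation test (adjusted 0.134), and none passed.

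The sum of G2/M transcripts ranged more widely than that of S phase transcripts. It reached from 209 CPM in aged obese 17 to 2367 CPM in aged obese 10, 11.3-fold. The sum of S phase members, without Ccnd1, reached from 354 CPM in young obese 2 to 1573 CPM in aged obese 10, 4.44-fold. Single members of both phases ranged widely. In S phase they ranged from 2.08-fold for E2f1 to 32.0-fold for Ccnd1, with 26.4-fold for E2f8 and 19.9-fold for Mcm5. In G2/M they ranged from 6.65-fold for Cenpa to 32.6-fold for Mybl2. The ratio of the sums lay between 1.30 and 1.81 in young lean libraries. It was 1.01 and 1.04 in young obese 2 and 1, 0.599 and 0.724 in aged lean 15 and 16, and 0.463 and 0.505 in aged obese 15 and 17. The 8 libraries with the lowest G2/M sums had ratios of at most 1.04, and the ratio was at least 1.30 in all others. The G2/M sum is the numerator of the ratio, so low sums and low ratios are linked by construction. The S phase sum is weighted towards its members with the most counts, Rrm1, Rrm2 and Pcna, so the ratio does not describe S phase members in general.

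Across libraries the members followed one another closely once group means were removed. Over the 1081 pairs of members the median Pearson r of log2 CPM was 0.959, and 814 pairs (75.3%) were above 0.9. With Mki67 the median was 0.972, and 40 of the other 46 members were above 0.9, while 428 of all tested genes (2.96%) were. Lowest were Cdt1 at 0.24, Rrm2 at 0.51, Ccnd1 at 0.77, E2f1 at 0.77, Pcna at 0.78 and Ccne1 at 0.88, all G1 and S phase members. The values share library, depth and culture.

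**Figure D4:**
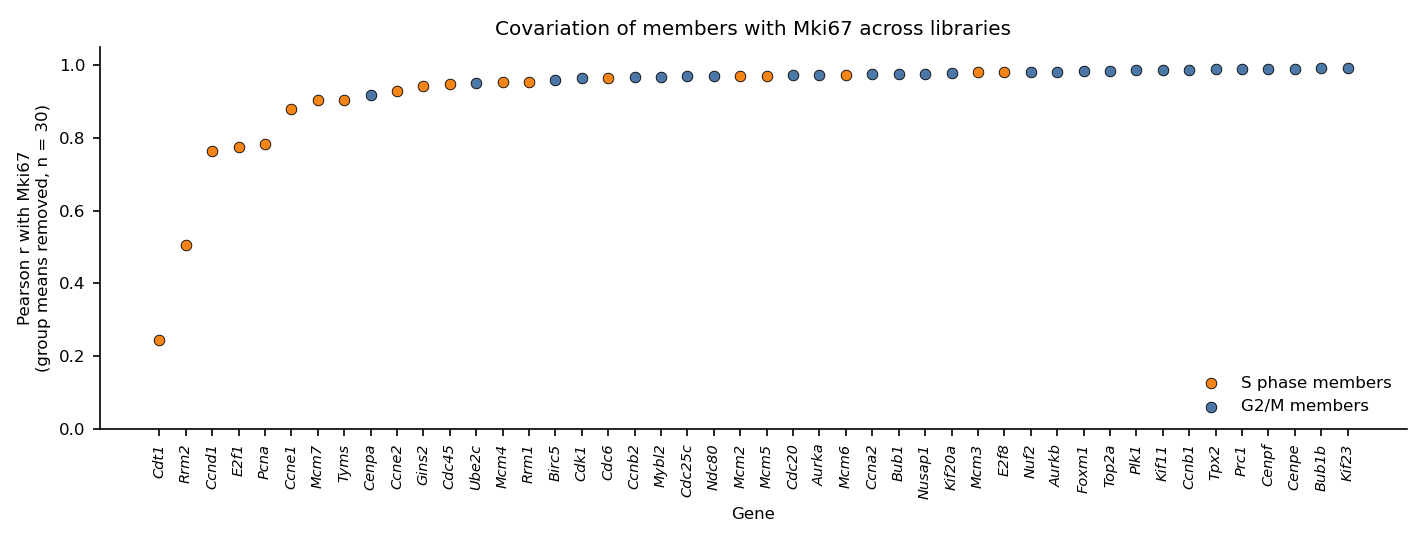
Pearson r of each member with Mki67 over 30 libraries (log2 CPM, group means removed), in rising order, for S phase (orange) and G2/M (blue) members. All G2/M members lie above 0.9, and Cdt1 (0.24) and Rrm2 (0.51) lie lowest.

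For 7 pairs of members, permutation tests with 100000 resamples gave the smallest p they can give, 2e-05, for both Pearson's r and Spearman's rho (adjusted 2e-05). Mki67 and Top2a had r 0.985 and rho 0.984, and r was 0.981 without the 2 libraries farthest from the Mki67 median. Mki67 and Ccnb1 had r 0.988 and rho 0.976 (0.985 without those 2). Mki67 and Mcm5, genes of different phases, had r 0.972 and rho 0.968 (0.963), and Foxm1 and Plk1 had r 0.958 and rho 0.948 (0.950). Mcm5 and Pcna had r 0.869 and rho 0.891 (0.860), E2f1 and Ccne1 r 0.831 and rho 0.851 (0.778), and Mki67 and Ccnd1 r 0.765 and rho 0.743 (0.714). All 7 were positive in each of the 4 groups, with the lowest value, 0.563, for Mki67 and Ccnd1 in young lean libraries. Without young obese 1 and 2, an alternative added after the data were seen, r over the other 6 young obese libraries lay between 0.556 (E2f1 and Ccne1) and 0.976 (Mki67 and Mcm5). Without aged obese 10 and 12, r over the other 4 aged obese libraries lay between -0.064 (Mcm5 and Pcna) and 0.995 (Mki67 and Ccnb1).

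Cdt1 and Rrm2 had the lowest correlations with Mki67 among the members, and their relation to each other was computed as well. Over 17 relations chosen after the values were seen, Cdt1 and Rrm2 had r 0.755 (adjusted permutation p = 6.8e-05) and rho 0.681 (adjusted 0.00034), with 0.690 without the 2 farthest libraries. The sign was positive in all groups, from 0.532 in young lean to 0.946 in young obese libraries. Cdt1 and Mki67 had r 0.244 (adjusted permutation p = 0.257) and rho 0.305 (adjusted 0.173), with r 0.290 without the 2 farthest. Within groups that r was 0.983 in young obese, 0.121 in young lean, -0.307 in aged lean and -0.01 in aged obese libraries. Rrm2 and Mki67 had r 0.507 (adjusted permutation p = 0.00892) and rho 0.640 (adjusted 0.000623), with r 0.548 without the 2 farthest. Within groups that r was 0.640 in young lean, 0.958 in young obese, 0.380 in aged lean and 0.322 in aged obese libraries. Whether the 3 correlations differ was not tested. Without young obese 1 and 2 the pooled r was 0.701 for Cdt1 and Rrm2, 0.388 for Rrm2 and Mki67 and -0.085 for Cdt1 and Mki67. Over the 4 aged obese libraries other than 10 and 12, r was 0.956 for Cdt1 and Rrm2. It was -0.799 there for Rrm2 and Mki67 and -0.724 for Cdt1 and Mki67. In aged lean 15 and 16, which had the lowest G2/M sums of their group, Cdt1 was at 18.998 and 26.2 CPM, above every young lean library. The median of all aged lean libraries, 17.9 CPM, was also above the highest young lean value, 17.5 CPM. Cdt1 was above every young lean library in aged obese 10 and 12 too, which had the highest G2/M sums of their group. In aged obese 15, with a low G2/M sum, it was at 58.5 CPM. By contrast, young obese 2, with Mki67 at 35.96 CPM, had the lowest Cdt1 of all libraries, 3.75 CPM.

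Cd34, the sialomucin used in the sort, was low where Mki67 was high. Of all tested genes 505 (3.498%) had an r with Mki67 below -0.8, and Cd34 and Dcn were among them. The r of Cd34 was -0.859 (adjusted permutation p = 6.8e-05) and its rho -0.850 (adjusted 8.5e-05), with -0.858 without the 2 farthest libraries. It was negative in each group, between -0.946 (aged obese) and -0.422 (young lean). Without young obese 1 and 2 the pooled r was -0.820, but over the other 6 young obese libraries it was 0.046, so the negative value in that group rests on those 2 libraries. Cd34 was at 0.193 CPM in aged obese 10, where Mki67 was highest, and at 38.0 and 21.1 CPM in aged obese 15 and 17. Dcn, the matrix proteoglycan decorin, had r -0.840 and rho -0.839 with Mki67 (adjusted permutation p = 6.8e-05 and 8.5e-05, and r -0.848 without the 2 farthest). Over the 4 aged obese libraries other than 10 and 12 the r of Dcn was 0.391, and that of Cd34 was -0.820. Ly6a had r -0.399 (adjusted permutation p = 0.0344) and rho -0.180 (adjusted 0.415; r -0.389 without the 2 farthest), with signs that differed between groups, and its pooled r turned to 0.261 without aged obese 10 and 12.

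**Figure D5:**
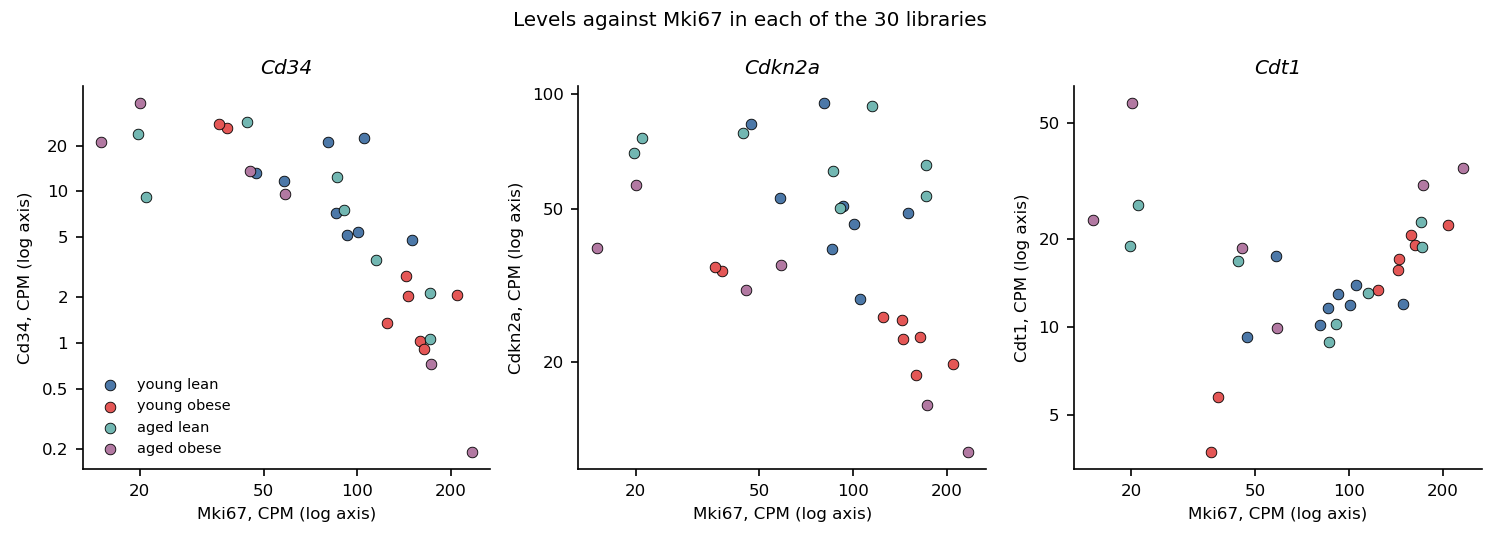
CPM of Cd34, Cdkn2a and Cdt1 (log axes) against CPM of Mki67 in each of the 30 libraries, coloured by group. Cd34 ranges from 38.0 CPM at low Mki67 to 0.193 CPM at the highest Mki67, Cdkn2a is lower where Mki67 is high in the obese groups, and Cdt1 is high at both ends of the Mki67 range.

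Among inhibitors of cyclin-dependent kinases, Cdkn2a (p16 and p19ARF) had r -0.690 and rho -0.714 with Mki67 (adjusted permutation p = 6.8e-05 and 8.5e-05; -0.714 without the 2 farthest), from -0.354 in aged lean to -0.932 in aged obese libraries. Cdkn2c (p18) moved with Mki67, with r 0.895 and rho 0.894 (adjusted permutation p = 6.8e-05 and 8.5e-05; 0.864 without the 2 farthest), positive in every group. Cdkn1b (p27) had r -0.530 (adjusted permutation p = 0.00617) and rho -0.633 (adjusted 0.00068, and r -0.472 without the 2 farthest). Its r was negative in every group, but it was 0.668 over the 4 aged obese libraries other than 10 and 12. Cdkn1a (p21) had r -0.166 (adjusted permutation p = 0.432) and rho -0.107 (adjusted 0.609; r -0.238 without the 2 farthest). Neither the log2 count total (r 0.275, rho 0.222, adjusted permutation p = 0.198 and 0.368; 0.275 without the 2 farthest) nor the percent of reads in no gene (r -0.143, rho -0.190, adjusted 0.473 and 0.405; 0.031 without the 2 farthest) passed with Mki67. Within groups the r of the percent in no gene was -0.829 in aged lean, 0.552 in young obese, -0.205 in young lean and -0.171 in aged obese libraries, and its part in the members' values was not tested. Of the remaining 5 relations with Mki67, that of Col1a1 passed by both measures (r -0.531, rho -0.531), those of Pdgfra and Cdkn2b by r only, and those of Thy1 and Itgb1 by neither.

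Other genes of the pathway were listed by function. Of 50 other replication genes none was called in any of the 6 comparisons, with a median of 0.25 for obesity in young mice (44 of 50 above 0) and of -0.24 for age in obese mice (48 of 50 below 0). Of 75 other mitosis genes 1 was called, Psrc1, a microtubule-associated protein, which fell by 0.62 ± 0.15 with obesity in young mice (adjusted p = 0.0201). In that comparison 8.83% of all genes were called. The medians of these 75 were 0.38 for obesity in young and -0.38 for age in obese mice. Cell cycle regulators outside the members were 43, of which 42 were tested.

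Of those 42 regulators 3 were called with obesity in young mice, where 8.83% of all genes were. For age in obese mice and for aged obese against young lean mice the count was 1 each, where 3.07% and 10.3% of all genes were called. In each case the regulators' share lay below that of all genes. Cdkn2a was at 29.2 to 94.3 CPM in young lean (median 49.9) and 18.5 to 35.3 CPM in young obese libraries (median 24.4). The ranges overlapped, and it fell by 1.11 ± 0.25 (adjusted p = 0.0151). Myc, a growth-promoting transcription factor, rose by 0.47 ± 0.14 (adjusted p = 0.034), and E2f4, an E2F factor that acts mainly in repressor complexes, by 0.26 ± 0.08 (adjusted p = 0.0409). Cdkn2a kept its call with each library left out. Myc lost it without young lean 7, 26 or 27 or young obese 1 or 2 (largest adjusted p = 0.0891). E2f4 lost it without young lean 7, 25, 26 or 27 or young obese 1, 2, 21 or 22 (largest adjusted p = 0.0997), and Psrc1 without young lean 7 or 26 (0.0556 and 0.0548). Without young obese 1 and 2 together, the adjusted p was 0.153 for Myc, 0.129 for E2f4 and 0.0784 for Psrc1. With no filter on low counts Myc and E2f4 were not called either (0.0542 and 0.0685). Ccnd2, cyclin D2, fell by 0.71 ± 0.17 with age in obese mice (adjusted p = 0.0273), and Cdkn2b (p15) was lower in aged obese than in young lean libraries by a log2 fold change of -1.07 ± 0.33 (adjusted p = 0.0363). Ccnd2 lost its call without aged obese 15 or 17 (adjusted p = 0.0789 and 0.0577) and without young obese 1 and 2 together (0.0585). Cdkn2b lost it without young lean 23, 24, 25, 26 or 27 or aged obese 10, 15 or 17 (largest adjusted p = 0.102), nor was it called with no filter (0.0569) or with only the groups compared (0.0905). No regulator was called for age in lean mice, obesity in aged mice or the difference between ages.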

How the data were processed

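RNA of cultured adipose-derived stem cells was sequenced in 30 libraries, 1 per mouse. The authors deposited raw counts of reads per Ensembl gene, with HTSeq 0.7.0, STAR and DESeq2 1.12.4 as the tools listed in the submitters' processing notes. Build, annotation and strand setting are not given in the sources used here. Overlapping, antisense and near-identical genes are therefore uncertain. Another 5 lines that named no gene were left out. Groups came from the sample titles, which name no batch.

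The main analysis ran in edgeR 4.0.16 under R 4.3.3. Low genes were removed by filterByExpr (14438 kept), libraries were scaled with TMM, and a quasi-likelihood model with a mean per group was fitted to all 30 libraries. P-values were adjusted by Benjamini-Hochberg over all tested genes at 0.05. The fit was also run on simulated counts, drawn independently for each gene and library. Such counts lack the shared movement of the members and the alike libraries seen here, so that run does not speak to them. Alternatives were DESeq2 1.42.0, its size factors, voom with sample quality weights (limma 3.58.1), no filter, only the compared groups, leaving out libraries, and a replicate block. For correlations, 0.5 was added to each count before log2 CPM were taken, and group means were removed. P-values measure the spread between mice after culture.

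The members and lists were chosen with earlier results of these data known. Full values were given for 15 anchor members in obesity in young mice and for every called member, and for up to 3 called genes per direction of each other list. Further comparisons named for them were chosen after the values were seen.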

Additional observations from a re-analysis of the deposited data

Results flagged for a closer look

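Within groups, 68 sets of values (15 anchor members and both phase sums in 4 groups) were checked for a library far from the others of its group, and 2 were found, where chance gives about 1 in 20. Mcm5 in young lean 26 was at 17.4 CPM, below the other 7 young lean libraries, which lay between 30.4 and 48.0 CPM. That library was the lowest of its group for 36 members, not for Mcm5 alone. Ccnd1 in young obese 22 was at 192 CPM, above the other 7 young obese libraries, which lay between 23.3 and 46.4 CPM. The cause was not tested for either.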

How the results depend on the processing

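Directions and counts depended on the processing, in young as well as in aged mice. The replicate block used only mice that share a number, 2 young and 4 aged pairs. Deviations correlated by 0.0779 and 0.196 in young pairs and by 0.18, 0.374, -0.081 and -0.497 in aged pairs. The labels do not say that a shared number pairs mice, so whether the block pairs anything is not known. The block called 0 members and moved the members' median for obesity in young mice to -0.86. The fitted values became negative for Mki67 (-0.77), Top2a (-0.82), Ccna2 (-0.93), Ccnb1 (-0.88), Cdk1 (-0.98), Plk1 (-1.12), Aurkb (-1.03), Foxm1 (-0.51), Mcm5 (-1.14), Mcm6 (-0.74), Pcna (-0.40), Rrm2 (-0.23), E2f1 (-0.27), Ccne1 (-0.050) and Cdt1 (-0.50). For obesity in aged mice the block gave -0.15 for Mki67 and -0.28 for Rrm2. Fewer samples entered it by construction, with young obese 1 in 1 of the 2 young pairs.

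With voom quality weights 39 members were called for age in obese mice (median -1.31), 13 for obesity in young mice and 0 for aged obese against young lean mice (median -0.81), and the median of the difference between ages was -1.09. Fitted values changed sign for Mki67 in age in lean (-0.085), obesity in aged (-0.86) and aged obese against young lean mice (-0.94), Rrm2 in age in obese mice (-0.14) and Ccnd1 in obesity in young mice (0.061). DESeq2 called 1 member for age in obese mice and 2, Cdt1 and Rrm2, for aged obese against young lean mice. Without aged obese 10 and 12 the count for age in obese mice was 29 and the medians were -1.52 (age in obese), -1.09 (obesity in aged), -1.11 (aged obese against young lean) and -1.47 (difference between ages), with Mki67 at -1.37 and -1.36 for obesity in aged and aged obese against young lean mice and Rrm2 at -0.073 for obesity in aged mice. Without young obese 1 and 2, Ccnd1 in obesity in young mice was 0.18. The cause was not tested.

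Leaving out 1 library at a time gave 0 to 1 members called for age in obese mice (1 without aged obese 16) and 0 to 2 for aged obese against young lean mice (0 without aged obese 15, 2 without aged obese 16 or young lean 1). The median ranged from -0.43 to 0.24 for aged obese against young lean mice and from -0.77 to -0.11 for the difference between ages, both lowest without aged obese 10. Mki67 ranged from -0.19 to 0.16 for age in lean, -0.52 to 0.24 for obesity in aged and -0.51 to 0.24 for aged obese against young lean mice. For obesity in young mice E2f1 ranged from -0.035 to 0.045 and Ccnd1 from -0.67 to 0.23. At these depths each member had at least 26 counts in a library. Over all tested genes the chi-square statistic per gene was at least 6.52 for any 2 libraries of a group, where sampling noise alone gives about 1. The share of counting error in the members' own spread was not tested.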
